A study of Mus musculus with 12 samples.

Results

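The homeostatic lymphoid chemokines and their receptors were taken as 6 genes of the nCounter mouse PanCancer Immune Profiling Panel, a set of barcoded probes that counts transcripts without amplification. They were the chemokines Ccl19, Ccl21a, Cxcl13 and Cxcl12 and the receptors Cxcr5 and Cxcr4, found by symbol, and all 6 were present among the 770 genes of the panel. Ccr7, the receptor shared by Ccl19 and Ccl21a, was read beside them.

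Homeostatic chemokines are made without inflammation by the stromal cells and vessels of lymph nodes and spleen, where they place lymphocytes in T cell zones and B cell follicles. CCL19 and CCL21 draw T cells and mature dendritic cells through CCR7, CXCL13 draws B cells into follicles through CXCR5, and CXCL12 holds many leukocytes and their precursors near stroma through CXCR4. The same chemokines mark tertiary lymphoid structures, the lymph node-like aggregates that form in some tumors and inflamed tissues.

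The tumors were grown from A20, a Balb/c B cell lymphoma line, implanted under the skin of female Balb/c mice. From about day 7 each tumor received 3 intratumoral injections on alternate days. GLA-SE tumors received 10 µg of GLA, a synthetic TLR4 agonist, in 50 µl of a 2% stable emulsion (the study also calls this G100), SE tumors received the emulsion alone and PBS tumors received PBS. Tumors were collected 2 h after the last injection, with 4 tumors per group, each from its own mouse. All 12 came from 1 cell line, and since A20 cells are B cells, counts of B cell genes mix lymphoma and host B cells. In RNA from whole tumors, fewer cells of a type and less RNA per cell cannot be told apart.

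Total counts ranged from 812522 to 1086462 in PBS tumors, from 1186487 to 1612415 in GLA-SE tumors and from 810260 to 1268512 in SE tumors. Values below are normalized counts, the deposited counts put on a common scale by 16 reference genes of the panel (their geometric mean in each tumor), and they compare 1 gene between tumors, not 1 gene with another. The B cell genes Cd79b and Ms4a1 were counted in every tumor, and the sum of 8 B cell markers ranged from 14090 to 23283. The tumor SE 4 stood apart from the other SE tumors. It had the lowest reference gene level of the 12 (927), so its counts were divided by the smallest scale factor (0.496). On deposited counts SE 4 was the highest of the 12 for Ccl21a (6596) but not for Ccl19 (640), Cxcl13 (1117) or Cxcl12 (2504). Its sum of 11 stromal and endothelial markers was 123267 against 3902 to 28966 in SE 1 to 3. For 10 markers of lymph node tissue its sum was 17033 against 638 to 1622, and for 4 epithelial markers it was 6340 against 246 to 2369. Each sum is set mainly by the genes with the highest counts, in SE 4 by Col3a1 (90245), Glycam1 (9172) and Epcam (4339). Values of the 6 genes and Ccr7 that rest on this tumor are given with and without it.

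**Figure D1:**
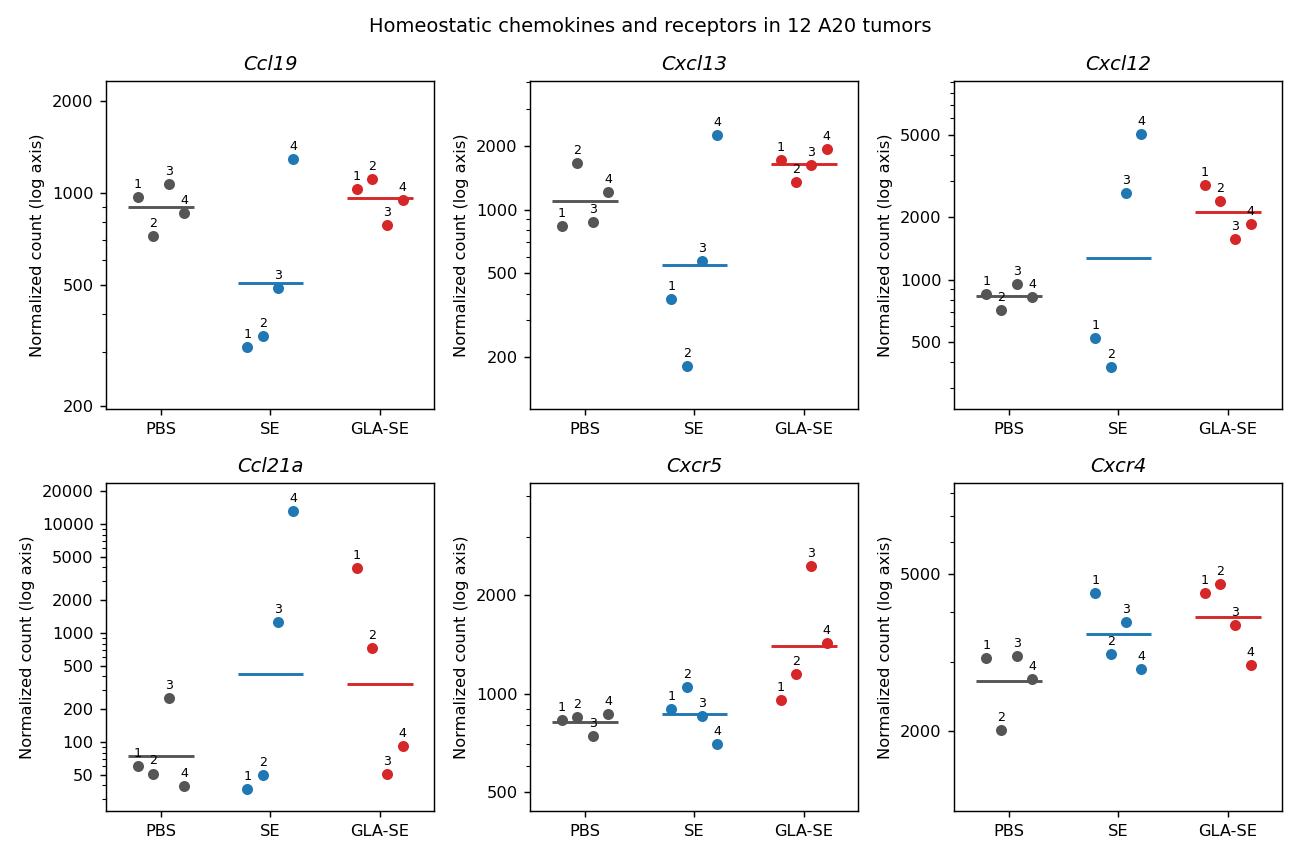
Normalized counts of the 6 genes on log axes, with 1 point per tumor, the replicate number beside it and a bar at the geometric mean of each group of 4 tumors. On this scale SE 4 is the highest of the 12 tumors for all 4 chemokines, and on deposited counts for Ccl21a only. The GLA-SE tumors lie above every PBS tumor for Cxcl12 and Cxcr5 only.

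In GLA-SE tumors Cxcl12, Cxcr5, Cxcr4 and Ccl21a were higher than in PBS tumors, and Ccl19 and Cxcl13 did not pass the test. Limma called Cxcl13 in place of Ccl21a (adjusted p = 0.0426 and 0.156 at a pseudocount of 1). The 4 that passed in edgeR at an adjusted p under 0.05 (quasi-likelihood test, Benjamini-Hochberg adjustment over 750 genes) were all higher. Of the whole panel 68.8% passed (68.4% as higher), so 4 of 6 was near the background. At an unadjusted p under 0.05 it was 5 of 6 against 72.4% of the panel. The GLA-SE and PBS ranges did not overlap for 2 of the 6 genes, against 64.8% of the panel. The median log2 fold change of the 6 was 0.70, and that of all 750 genes was 0.90. Between SE and PBS tumors 0 of the 6 genes and 0% of the panel passed, and 1 of the 6 (Ccl21a) had an unadjusted p under 0.05 against 17.9% of the panel. DESeq2 called 1 of the 6 in that comparison, Ccl19 with its own size factors and Ccl21a with the reference gene scale. Between GLA-SE and SE tumors edgeR called 0 of the 6 and 2.13% of the panel, 1 of the 6 (Cxcr5) had an unadjusted p under 0.05 against 18.5% of the panel, and limma and DESeq2 also called 0, though DESeq2 on the reference gene scale gave no adjusted p for Ccl21a. The SE range overlapped the PBS range for all 6 genes, where it did not for 9.2% of the panel, and it overlapped the GLA-SE range for all 6, where it did not for 14.8%. The comparisons with PBS share the PBS tumors.

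**Figure D2:**
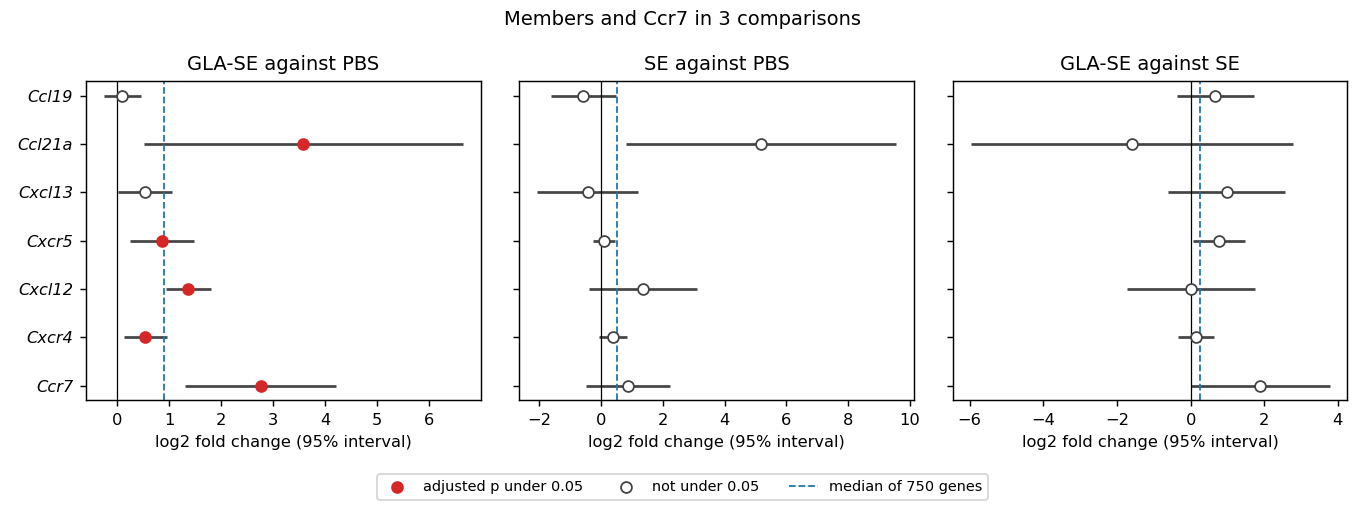
Log2 fold changes with 95% intervals from edgeR for the 6 genes and Ccr7 in each comparison, filled where the adjusted p was under 0.05, with a dashed line at the median of the 750 genes. GLA-SE against PBS is the comparison with filled points, and the intervals of Ccl21a are the widest in all 3 panels.

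Ccl19, the ligand of CCR7 that is made in T cell zones, was level between PBS and GLA-SE tumors and low in most SE tumors. Its normalized counts were 971, 723, 1066 and 856 in PBS tumors 1 to 4. They were 1031, 1106, 784 and 947 in GLA-SE tumors 1 to 4 and 312, 338, 487 and 1291 in SE tumors 1 to 4. The PBS and GLA-SE ranges overlapped, whereas SE 1 to 3 lay below every PBS and GLA-SE tumor and SE 4 lay above all of them. The place of SE 4 rests on its scaling, since its deposited count of Ccl19 (640) was below that of every PBS and GLA-SE tumor. The log2 fold change of GLA-SE over PBS was 0.10 (standard error 0.16, 95% interval -0.26 to 0.45, edgeR adjusted p = 0.593), which ranked 678 of 750. Ccl19 therefore moved less than most of the panel on this scale. On the scale of the panel median it was lower in GLA-SE tumors by edgeR (log2 fold change -1.16).

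The SE tumors gave a log2 fold change for Ccl19 of -0.58 over PBS (interval -1.63 to 0.47, edgeR adjusted p = 0.404). Without SE 4 it was -1.25 (adjusted p = 0.113). GLA-SE over SE gave 0.67 (interval -0.38 to 1.73, edgeR adjusted p = 0.524), and without SE 4 the GLA-SE tumors were higher by 1.35 (adjusted p = 0.0179). In that fit without SE 4, Ccl19 and Cxcl13 were the 2 of 6 genes called, against 14% of the panel.

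The promoter of Ccl19 is shown with that of Cxcl13 because both chemokines are known targets of the lymphotoxin receptor, which acts through the NF-kB subunit RelB, and because the windows share a short motif. The motif GGGANNTTTG holds the letters that 1 word of each window has in common (N is any base). It was chosen after the windows had been read, so its presence in both is no finding, and a search for words that open with GGG and differ at 2 bases or fewer found a further pair, GGGANGNCCC (1.82% of windows), which is not marked. Its form in Cxcl13 has been described as a RelB element. Each sequence is the 250 bases before the gene's start from RefSeq (GRCm38.p6), written 5′ to 3′ on the gene's strand with the motif in capitals, for Ccl19 at chr4:42756366-42756615 on the minus strand and for Cxcl13 at chr5:95956689-95956938 on the plus strand.

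Ccl19: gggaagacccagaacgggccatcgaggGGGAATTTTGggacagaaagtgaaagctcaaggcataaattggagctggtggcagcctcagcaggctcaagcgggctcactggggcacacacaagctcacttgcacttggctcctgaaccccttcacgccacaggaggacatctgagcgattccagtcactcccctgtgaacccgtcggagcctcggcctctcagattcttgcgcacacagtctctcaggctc

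Cxcl13: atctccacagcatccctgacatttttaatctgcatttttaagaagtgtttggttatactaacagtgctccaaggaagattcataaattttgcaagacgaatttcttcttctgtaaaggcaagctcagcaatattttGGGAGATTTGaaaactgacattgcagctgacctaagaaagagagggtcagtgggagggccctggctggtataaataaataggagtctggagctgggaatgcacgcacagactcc

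The match starts 223 bases before the start of Ccl19 and 114 bases before that of Cxcl13. Searched on both strands, 1.21% of 32851 such windows held it. The windows of Ccl21a, Cxcl12 and Cxcr4 held none, and no window was listed for Cxcr5. A match is a string of letters, and whether a factor bound there was not measured.

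Ccl21a, the other ligand of CCR7, made by lymphatic vessels, high endothelial venules and T zone stroma, varied more between tumors than any other of the 6 genes. Normalized counts of Ccl21a were 60.7, 51.4, 251 and 39.7 in PBS tumors 1 to 4. They were 3962, 735, 50.8 and 92.0 in GLA-SE tumors 1 to 4 and 37.3, 50.1, 1263 and 13305 in SE tumors 1 to 4. The level was high in GLA-SE 1 and 2 and in SE 3 and 4, and the other 8 tumors lay between 37.3 and 251, so the groups overlapped. The highest tumor was 357-fold above the lowest, where the other 5 genes ranged from 2.34-fold (Cxcr4) to 13.3-fold (Cxcl12).

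GLA-SE over PBS gave a log2 fold change for Ccl21a of 3.58 (standard error 1.35, interval 0.51 to 6.64, edgeR adjusted p = 0.0404), with an exact permutation p of 0.229 for the mean. Without GLA-SE 1 it was 1.53 and no longer called, the call was also lost without GLA-SE 2, PBS 1, PBS 2 or PBS 4, and so 3 of the 8 fits that leave out a tumor kept it. Limma gave 2.18 (adjusted p = 0.156), and the call was also lost with all 12 tumors in 1 fit and without rescaling (adjusted p = 0.131 and 0.0627, edgeR). SE over PBS gave 5.18 (interval 0.80 to 9.56, edgeR adjusted p = 0.256), and without SE 4 it was 2.15 (adjusted p = 0.525). GLA-SE over SE gave -1.60 (interval -5.97 to 2.78, edgeR adjusted p = 0.729), which turned to 1.43 without SE 4.

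Glycam1 and Lyve1, both in the list of lymph node tissue markers, were read beside Ccl21a. Glycam1 is a mucin-like protein made by high endothelial venules. Lyve1 is a receptor of lymphatic endothelium, which is not particular to lymph nodes. Glycam1 was 42.6, 49.5, 24.1 and 31.8 in PBS tumors, 1121, 251, 70.7 and 26.6 in GLA-SE tumors and 11.99, 10.2, 9.96 and 9172 in SE tumors, each from replicate 1 to 4. Lyve1 was highest in SE 4 (266), GLA-SE 1 (115) and GLA-SE 2 (110), and it lay between 11.99 and 85.9 elsewhere. The tumors with the highest Glycam1 were thus SE 4, GLA-SE 1 and GLA-SE 2, which were 3 of the 4 tumors with high Ccl21a. SE 3 had 1263 for Ccl21a, 9.96 for Glycam1 and 85.9 for Lyve1.

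A fit without GLA-SE 1 and 2 was added after the data had been seen. These are the 2 GLA-SE tumors with high Ccl21a, so its log2 fold change over PBS in that fit (-0.50) was set by the removal and is no test. In the same fit Cxcl12 stayed higher at 1.03 (edgeR adjusted p = 0.00173) and Cxcr5 at 1.23 (adjusted p = 0.00257), so 2 of the 6 genes were called against 61.6% of the panel. Of the 10 lymph node tissue markers 7 were higher in GLA-SE than in PBS tumors with all tumors in, near the 68.4% of the panel that was higher. Their sum ranged from 986 to 1651 in PBS tumors and from 2809 to 6418 in GLA-SE tumors, and in SE 1 to 3 it ranged from 638 to 1622. The highest GLA-SE sum was that of GLA-SE 3, where Ccr7 alone gave 4128 and Ccl21a was the lowest of its group. Whether lymph node tissue collected with a tumor has a part in the Ccl21a values was not tested. The mouse genome holds Ccl21b and Ccl21c, close copies of Ccl21a, and whether the probe separates them is not given in the sources used here.

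**Figure D3:**
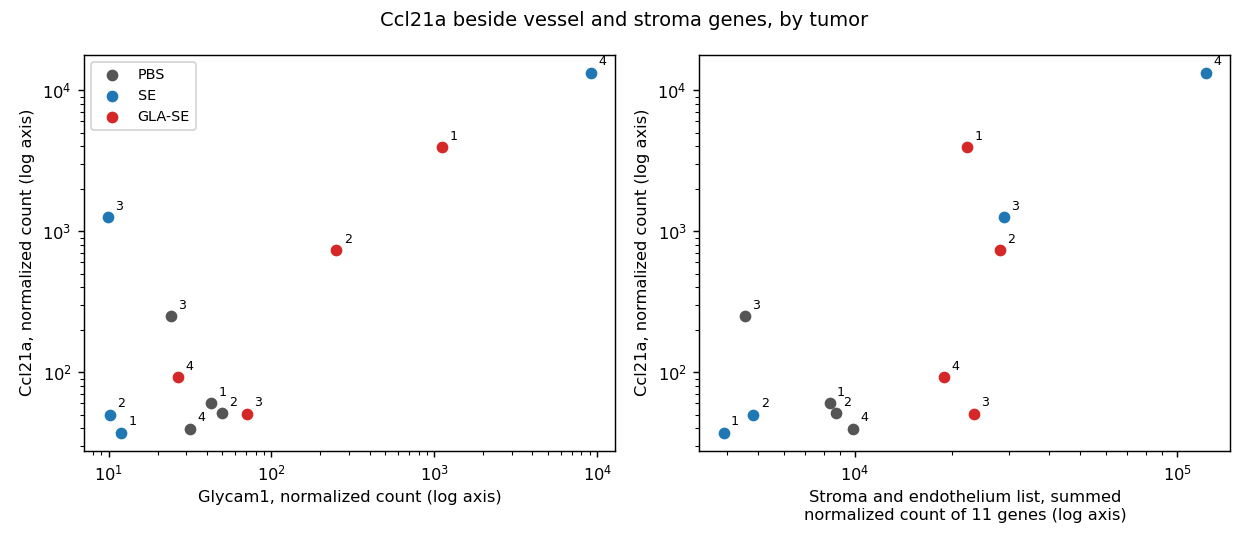
Normalized counts of Ccl21a on log axes against Glycam1 (left) and against the sum of 11 stromal and endothelial markers (right), with 1 point per tumor colored by group and its replicate number. SE 4 and GLA-SE 1 are highest for both Ccl21a and Glycam1, while SE 3 has 1263 for Ccl21a with 9.96 for Glycam1 and a stromal sum of 28966.

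Cxcl13, the follicular chemokine that draws B cells, had its lowest values in SE tumors. In PBS tumors 1 to 4 the normalized counts were 833, 1657, 876 and 1216. They were 1719, 1354, 1630 and 1942 in GLA-SE tumors 1 to 4 and 379, 182, 573 and 2253 in SE tumors 1 to 4. SE 1 to 3 lay below all PBS and GLA-SE tumors, SE 4 lay above all of them, and the GLA-SE range overlapped the PBS range through PBS 2 alone. The deposited Cxcl13 count of SE 4 (1117) lay inside the PBS range of deposited counts (879 to 1774).

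For Cxcl13 GLA-SE over PBS gave a log2 fold change of 0.54 (standard error 0.23, interval 0.02 to 1.06, edgeR adjusted p = 0.0617), which missed the threshold, and without PBS 2 it was 0.77 and passed. SE over PBS gave -0.44 (interval -2.08 to 1.20, edgeR adjusted p = 0.697) and -1.60 without SE 4 (adjusted p = 0.207). GLA-SE over SE gave 0.97 (interval -0.61 to 2.56, edgeR adjusted p = 0.551), and without SE 4 the GLA-SE tumors were higher by 2.14 (adjusted p = 0.0222). The sum of 8 T cell markers moved with Cxcl13 and Ccl19 in the SE group. It was 1143 to 2773 in SE 1 to 3, 8977 in SE 4, 1308 to 3301 in PBS tumors and 4091 to 5463 in GLA-SE tumors. Thy1 was the largest gene of the sum in SE 3 (1451) and SE 4 (3956), where Cd3d was 273 and 1198. The part of this sum in either chemokine was not tested.

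Cxcr5, the receptor of CXCL13 carried by B cells and follicular helper T cells, was higher in every GLA-SE tumor than in any PBS tumor. Its normalized counts were 833, 849, 744 and 867 in PBS tumors 1 to 4. They were 959, 1148, 2446 and 1425 in GLA-SE tumors 1 to 4 and 897, 1046, 854 and 702 in SE tumors 1 to 4. GLA-SE 3 was the highest of the 12 tumors and SE 4 the lowest, the reverse of the place of SE 4 for the chemokines. The GLA-SE and SE ranges overlapped through GLA-SE 1 and SE 2.

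The log2 fold change of Cxcr5 in GLA-SE over PBS was 0.86 (standard error 0.27, interval 0.25 to 1.47, edgeR adjusted p = 0.0197), close to the panel median of 0.90, and the call was lost without PBS 3. The exact permutation p was 0.0286, the smallest that 4 tumors against 4 allow. GLA-SE over SE gave 0.77 (interval 0.06 to 1.48, edgeR adjusted p = 0.230), and SE over PBS gave 0.09 (interval -0.26 to 0.44, edgeR adjusted p = 0.715). The B cell markers did not rise with Cxcr5. Of the 8, 2 were lower in GLA-SE than in PBS tumors, Ms4a1 (CD20, log2 fold change -0.44) and Cd79b (a chain of the B cell receptor complex, -0.41), and 0 were higher. The log2 fold change of Cxcr5 was 0.55 without rescaling (not called) and -0.49 on the panel median scale, so its direction differed between scales.

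Cxcl12, the stromal chemokine that signals through CXCR4, had the smallest adjusted p of the 6 genes between GLA-SE and PBS tumors. Cxcl12 had normalized counts of 859, 714, 956 and 827 in PBS tumors 1 to 4. They were 2859, 2387, 1569 and 1860 in GLA-SE tumors 1 to 4 and 525, 380, 2632 and 5051 in SE tumors 1 to 4. Every GLA-SE tumor exceeded every PBS tumor, and the SE tumors split, with SE 1 and 2 below all PBS tumors and SE 3 and 4 above all of them.

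GLA-SE over PBS gave a log2 fold change for Cxcl12 of 1.37 (standard error 0.19, interval 0.93 to 1.81, edgeR adjusted p = 0.000564), a 2.59-fold difference that ranked 199 of 750. Leaving out any 1 of the 8 tumors kept the call, with values from 1.21 to 1.50. It was not called on the panel median scale (0.12), with edgeR's trimmed mean of M values (TMM, 0.49) or with DESeq2's own size factors (0.55), and with all 12 tumors in 1 fit the value stayed at 1.37 but missed the threshold. SE over PBS gave 1.35 (interval -0.39 to 3.10, edgeR adjusted p = 0.280) and 0.49 without SE 4 (adjusted p = 0.774). GLA-SE over SE gave 0.02 (interval -1.72 to 1.75, edgeR adjusted p = 0.992) and 0.88 without SE 4 (adjusted p = 0.348).

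The stromal and endothelial markers and the macrophage markers moved with Cxcl12 from the PBS to the GLA-SE group, where most of the panel rose. They also moved with Cxcl12 among the SE tumors. Within the PBS and GLA-SE groups the order of the tumors differed. PBS 3 had the highest Cxcl12 of its group (956) with the lowest stromal sum (4532) and the lowest macrophage sum (28900). GLA-SE 3 had the lowest Cxcl12 of its group (1569) with the highest macrophage sum (117909). All 11 stromal and endothelial genes were higher in GLA-SE than in PBS tumors on the reference gene scale, where 68.4% of the panel was called higher. Their median log2 fold change was 1.02 against 0.90 for the panel. The GLA-SE and PBS ranges did not overlap for 7 of the 11, against 64.8% of the panel. The largest rises were in the collagens Col1a1 (log2 fold change 1.70) and Col3a1 (1.64) and in Vwf, the endothelial von Willebrand factor (1.50). The smallest were in the endothelial receptors Kdr (0.54), Tie1 (0.95) and Tek (0.96). The sum of the 11 genes was 4532 to 9843 in PBS tumors, 18869 to 28194 in GLA-SE tumors, 3902 in SE 1, 4831 in SE 2, 28966 in SE 3 and 123267 in SE 4. The sum of 8 macrophage markers was 28900 to 37087 in PBS tumors, 82369 to 117909 in GLA-SE tumors, 24130 in SE 1, 30804 in SE 2, 72369 in SE 3 and 105923 in SE 4. The collagens Col1a1 and Col3a1 made up most of the stromal sums. Lyz2 made up most of the macrophage sums (73823 in GLA-SE 4). The SE tumors with high sums for either list were those with high Cxcl12. The part of stromal or macrophage content in Cxcl12 was not tested.

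Cxcr4, the receptor of CXCL12 found on most leukocytes and on many lymphoma cells, varied least of the 6 genes over the 12 tumors. Normalized counts of Cxcr4 were 3054, 2014, 3097 and 2710 in PBS tumors 1 to 4. They were 4458, 4715, 3712 and 2948 in GLA-SE tumors 1 to 4 and 4482, 3135, 3774 and 2877 in SE tumors 1 to 4. All 3 ranges overlapped, with GLA-SE 4 and SE 4 inside the PBS range.

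GLA-SE over PBS gave a log2 fold change for Cxcr4 of 0.54 (standard error 0.19, interval 0.12 to 0.96, edgeR adjusted p = 0.0279), below the panel median. The call was lost without GLA-SE 1, GLA-SE 2, PBS 2 or PBS 4, with all 20 reference genes (adjusted p = 0.0565), with all 12 tumors in 1 fit (0.0568) and without rescaling (0.399), and on the panel median scale Cxcr4 was lower in GLA-SE tumors (-0.73, called). SE over PBS gave 0.39 (interval -0.06 to 0.84, edgeR adjusted p = 0.256), and GLA-SE over SE gave 0.15 (interval -0.35 to 0.65, edgeR adjusted p = 0.789).

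Ccr7, which brings T cells and mature dendritic cells to the CCL19 and CCL21 of lymph nodes, rose in GLA-SE tumors. Its normalized counts were 325, 158, 229 and 239 in PBS tumors 1 to 4. They were 590, 767, 4128 and 963 in GLA-SE tumors 1 to 4 and 277, 134, 323 and 1017 in SE tumors 1 to 4. All GLA-SE tumors lay above all PBS tumors, with GLA-SE 3 far above the rest, and SE 4 was the high SE tumor. The log2 fold change of GLA-SE over PBS was 2.76 (standard error 0.64, interval 1.31 to 4.21, edgeR adjusted p = 0.00560), ranking 25 of 750, and leaving out any 1 of the 8 tumors kept the call (1.70 to 3.04). SE over PBS gave 0.88 (edgeR adjusted p = 0.334) and 0.04 without SE 4 (adjusted p = 0.974). GLA-SE over SE gave 1.89 (interval -0.002 to 3.77, edgeR adjusted p = 0.266) and 2.72 without SE 4 (adjusted p = 0.0622). It was called in that comparison without rescaling (2.20, edgeR adjusted p = 0.0465) and by DESeq2 with its own size factors (1.53, adjusted p = 0.0404). Ccr7 and its ligands were not high in the same GLA-SE tumors. GLA-SE 3, highest for Ccr7, had the lowest Ccl19 and the lowest Ccl21a of its group. The sum of 6 dendritic cell markers was also highest in GLA-SE 3 (5687, against 2480 to 2746 in the other GLA-SE tumors), of which the activation marker Cd83 made up 4447. Flt3 was also highest in GLA-SE 3 (830, against 504 to 519 in the other GLA-SE tumors). Itgax (343), Xcr1 (22.1), Lamp3 (20.98) and Cd207 (23.2) lay inside the range of the other GLA-SE tumors. The sum of 7 neutrophil markers was 9037 in GLA-SE 3 against 825 to 2193 in the other GLA-SE tumors. Of the sum in GLA-SE 3, S100a8 made up 7805. Cxcr2 (477), Csf3r (665), Camp (19.9) and Ltf (18.8) were also the highest of the group there, while Mpo (34.2) and Elane (17.7) were not. The part of either list in Ccr7 was not tested.

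Among the other homeostatic partners, 4 of 8 were higher in GLA-SE than in PBS tumors and 0 lower, below the 68.4% of the panel that was higher, with a median log2 fold change of 1.04 against 0.90 for the panel. Besides Ccr7 they included Gpr183, the oxysterol receptor that guides B cells and dendritic cells (1.47), and Ccl28, a mucosal chemokine (0.88), whose deposited counts were low, 10 to 16 in PBS and 16 to 25 in GLA-SE tumors. Between SE and PBS tumors and between GLA-SE and SE tumors edgeR called 0 of these 8, with 1 at an unadjusted p under 0.05 in each.

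The lymphotoxin and noncanonical NF-kB pathway, which drives these chemokines in lymph node stroma, was measured through 14 genes. In GLA-SE against PBS tumors 7 were higher and 0 lower, again a smaller share than the 68.4% of the panel, with a median of 0.89. The largest rises were in Tnfsf11 (RANKL, log2 fold change 2.19), Tnfsf14 (LIGHT, a ligand of the lymphotoxin beta receptor, 1.66) and Tnfrsf11a (RANK, 1.38), and the smallest among those called in Relb (0.81), Tnfrsf14 (the LIGHT receptor HVEM, 1.08) and Ltbr (the lymphotoxin beta receptor, 1.10). The lymphotoxin genes themselves did not pass, Ltb at -0.01 and Lta at 0.41 (edgeR adjusted p = 0.912 and 0.113), and B cells, of which A20 is one kind, are known to make both. For SE against PBS and GLA-SE against SE 0 of the 14 passed in edgeR, with 1 and 3 at an unadjusted p under 0.05.

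Of 12 genes linked to follicles and follicular dendritic cells, 8 were higher in GLA-SE tumors and 0 lower, near the 68.4% of the panel, with a median of 0.99. They included the adhesion molecule Vcam1 (1.77), the Fc receptor Fcgr2b (1.55) and clusterin, Clu (1.54), and with smaller rises Mfge8, which tags dying cells for uptake (0.76), the B cell survival factor Tnfsf13b (BAFF, 0.93) and Icosl, the ligand of ICOS (1.04). Cr2, the complement receptor that defines follicular dendritic cells and mature B cells, did not pass, and its normalized counts were between 97.1 and 140 in GLA-SE tumors, 98.6 and 137 in PBS tumors and 73.5 and 289 in SE tumors. In both comparisons with SE tumors edgeR called 0 of the 12, with 3 at an unadjusted p under 0.05 in each. The follicle and partner lists share genes, among them Fcer2a, Cr2 and Ccr7, with the lymph node list.

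In the remaining marker lists the genes called in GLA-SE against PBS tumors were all higher, where 68.4% of the panel was called higher. All 8 macrophage genes were higher (median log2 fold change 1.62), from the scavenger receptor Msr1 (1.96), Mertk (1.86) and Emr1 (F4/80, 1.64) down to Lyz2 (1.52), Cd68 (1.37) and Cd163 (1.25). Of 8 T cell genes 5 were higher (median 0.86), Thy1 (1.44), the CD3 chains Cd3d (0.95), Cd3g (0.93) and Cd3e (0.82), and Cd4 (0.79). Of 7 neutrophil genes 3 were higher (median 0.61), the calcium-binding S100a8 (5.04) and the receptors Cxcr2 (3.21) and Csf3r (2.23). The others were Cd83 (1.41) and Itgax (0.92) among 6 dendritic cell genes (median 0.40) and the growth factor receptor Egfr (0.89) among 4 epithelial genes (median 0.32). In the lymph node list the called genes included Glycam1 (3.31) and Ccr7 (2.76) and, with smaller rises, the IgE receptor Fcer2a (1.15), the lymphocyte survival factor Il7 (0.87) and Tcf7 (0.79).

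**Figure D4:**
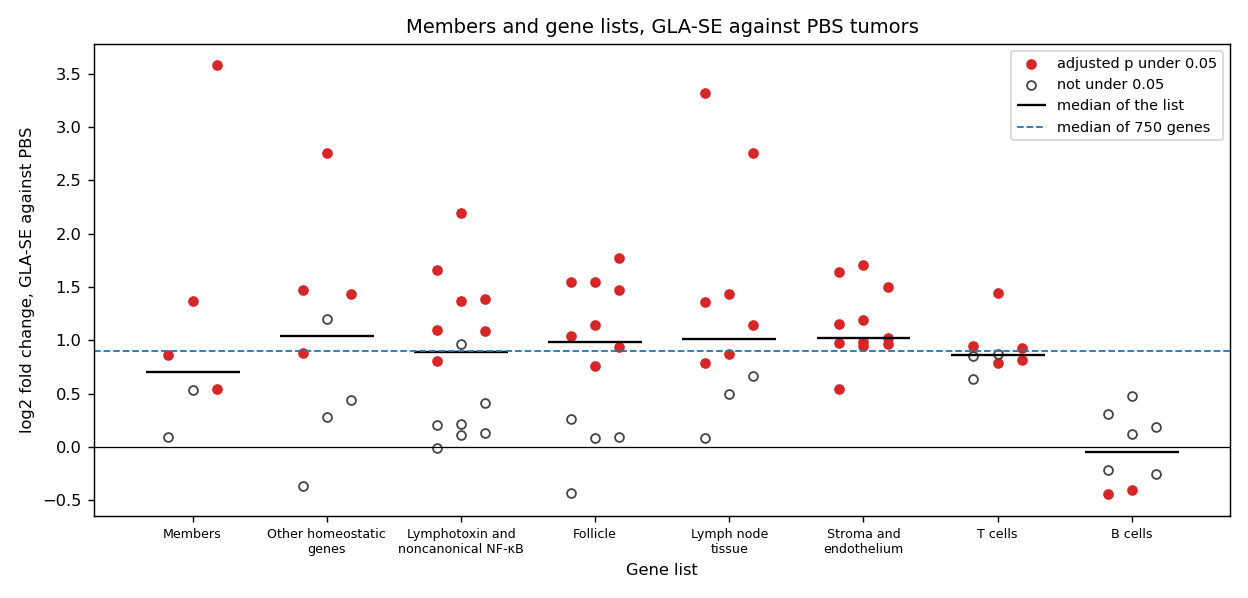
Log2 fold changes of GLA-SE over PBS for each gene of the 6 and of 7 lists, filled where the edgeR adjusted p was under 0.05, with a bar at each list's median and a dashed line at the median of the 750 genes (0.90). The 6 genes have a median of 0.70, the stromal genes are all filled, and the B cell genes lie around 0, with the 2 filled ones below it.

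The scale set the direction of several of these differences. In GLA-SE against PBS tumors the median log2 fold change of the panel was 0.90 on the reference gene scale, and it moved by -1.30 on the panel median scale, by -0.91 with TMM and by -0.29 without rescaling. Ccl19, Cxcl13, Cxcr4 and Cxcr5 were negative on the panel median and TMM scales, while Cxcl12 (0.12 and 0.49), Ccl21a (2.38 and 2.74) and Ccr7 (1.34 and 1.75) stayed positive. A change of scale shifts every gene by nearly the same amount, so the place of a gene relative to the panel median hardly depends on the scale. On the reference gene scale Ccr7, Ccl21a and Cxcl12 lay above that median and Ccl19, Cxcl13, Cxcr4 and Cxcr5 below it.

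**Figure D5:**
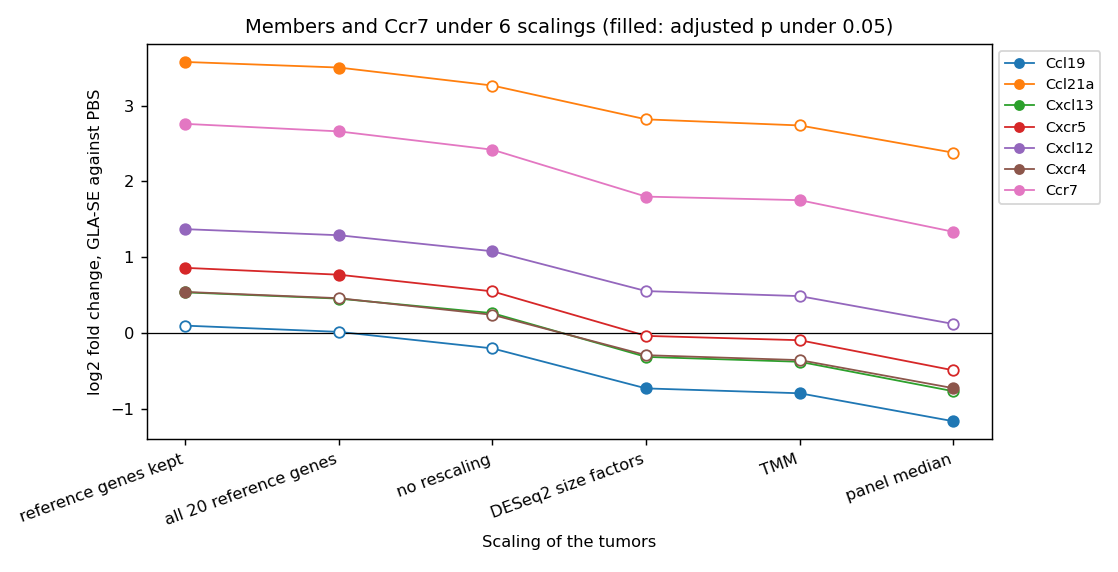
Log2 fold changes of GLA-SE over PBS for the 6 genes and Ccr7 under 6 scalings of the counts, filled where the adjusted p was under 0.05, where a line only joins the values of 1 gene. Ccl19, Cxcl13, Cxcr4 and Cxcr5 fall below 0 on the panel median, TMM and DESeq2 scales, and Ccr7, Ccl21a and Cxcl12 stay above it.

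Patterns over the 12 tumors were compared by Pearson's r of log2(normalized count + 1), as a description in which tumors share groups, scaling and SE 4. Ccl19 was most like Tcf7 (r = 0.91), a transcription factor of naive and memory T cells, then Cd247 (0.86), the T cell receptor zeta chain, and Cxcl13 (0.85). Cxcl13 was most like Ccl19 (0.85), the T cell kinase Lck (0.82) and Tcf7 (0.82). The nearest genes of both chemokines by this r thus included T cell genes. With group means removed, r was 0.96 for Ccl19 with Tcf7, 0.88 with Cxcl12 and 0.85 with Ccl21a. For Cxcl13 it was 0.80 with Lck, 0.79 with Tcf7 and 0.82 with Cxcl12, so other chemokines were about as close.

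Ccl21a was most like Il22ra2 (r = 0.92), a soluble receptor of interleukin 22, then Maf (0.90) and the pericyte receptor Pdgfrb (0.89). Cxcl12 was most like Tlr8 (0.97), an RNA sensor of myeloid cells, Il13ra1 (0.96) and the interferon-induced Ifit3 (0.96). Ccl21a and Cxcl12 also varied together (r = 0.86, and 0.89 with group means removed). Both receptors gave other neighbors.

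Cxcr5 was most like H2-DMb2 (r = 0.97), which loads peptides on MHC class II, and Cd40 (0.96), the B cell and dendritic cell costimulatory receptor. Cxcr4 had weaker neighbors, the MHC class I genes H2-M3 (0.79) and Tap1 (0.73) and the class I regulator Nlrc5 (0.73), and these fell to 0.58, 0.64 and 0.45 with group means removed. With group means removed, Cxcr5 and Ccl21a had r = -0.76. Ccr7 was most like Relb (0.98), Arg2 (0.98) and Jak2 (0.98).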

How the data were processed

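The deposited table gives counts of barcoded probes for 770 genes in 12 tumors. The study's methods describe normalization in nSolver with a threshold count of 20, but in the table every value is a whole number and neither the totals nor the reference genes are equal across tumors, so the values were treated as raw counts. No genome build applies to them.

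The geNorm procedure over all 12 tumors kept 16 of the 20 reference genes, and counts were divided by their geometric mean in each tumor, relative to the other tumors. Each pair of groups was fitted in edgeR 4.0.16 under R 4.3.3 (quasi-likelihood test, no covariates, no filter on low counts) over the other 750 genes, with Benjamini-Hochberg adjustment and a threshold of 0.05. Single genes also had a two-sided exact permutation test of the mean over 70 assignments of 4 tumors against 4 (smallest p 0.0286). The alternatives were other reference genes and scalings, a filter on low counts, limma 3.58.1, DESeq2 1.42.0, all tumors in 1 fit, the replicate number as a block, and leaving out each tumor. Scripts were tested on simulated data. Deposited counts of the 6 genes were at least 46 in every tumor, and the 4 tumors per group limit the precision.

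Groups came from the labels. Members and gene lists were chosen with earlier results of these data known. Named genes are the 6, Ccr7, Glycam1 and Lyve1, up to 3 with the highest and 3 with the lowest fold changes among those called in each list in that comparison, and the 3 of 721 genes with the most similar pattern to each. The lists are the other homeostatic partners, the lymphotoxin and noncanonical NF-kB pathway, follicle genes, and markers of lymph node tissue, stroma and endothelium, epithelium and 5 leukocyte types. Some genes that this rule picks are not reported here. Ltb, Lta, Cr2, Ccl27a, Cxcl14, Epcam and the motif were named after their values or windows were seen. Of the 770 symbols 754 matched RefSeq names of GRCm38.p6, 8 matched a synonym and 8 did not match, and RefSeq promoter windows were matched for 5 of the 6 genes.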

Additional observations from a re-analysis of the deposited data

Results flagged for a closer look

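Among 27 sets of 4 tumors (the genes read in each group), 4 held a tumor farther from its nearest neighbor than Dixon's 95% critical value allows. The rate of 5% (1.35 sets) holds for independent sets of normally distributed values. These sets were normalized counts without a log and shared tumors, so 4 against 1.35 shows no excess over chance. For Ccl21a the flagged tumors were PBS 3, with a normalized count of 251 against 39.7 to 60.7 in the other PBS tumors, and SE 4, with 13305 against 37.3 to 1263. For Glycam1 it was SE 4, with 9172 against 9.96 to 11.99. For Ccr7 it was GLA-SE 3, with 4128 against 590.2 to 963.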

How the results depend on the processing

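With 4 tumors per group and 1 tumor, SE 4, far from its group, intervals in the comparisons with SE are wide, and a p over the threshold does not show equal levels. Directions between GLA-SE and PBS tumors were mostly upward on the reference gene scale and without rescaling, and mixed or mostly downward on the panel median, TMM and DESeq2 scales.

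For GLA-SE against PBS, 516 of 750 genes were called (513 higher, 3 lower). The count was 316 with TMM (148 higher, 168 lower), 368 on the panel median scale (61 higher, 307 lower), 368 without rescaling (351 higher, 17 lower), 342 with DESeq2 and its own size factors (190 higher, 152 lower), 255 with all 12 tumors in 1 fit and 443 to 504 leaving out 1 tumor. Of the 6 genes 4 were called, and this became 2 on the panel median scale (both lower, Ccl19 and Cxcr4), 1 with TMM (Ccl19, lower), 1 without rescaling, 1 with all 12 tumors in 1 fit, 1 with DESeq2's own size factors (Ccl19, lower), 2 without the tumors highest in Glycam1 (an alternative chosen after seeing the data) and 2 to 4 leaving out 1 tumor. Cxcr5 lost its call without PBS 3.

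For SE against PBS DESeq2 called 9 genes with its own size factors and 53 with the reference gene scale, with 1 of the 6 in each. For GLA-SE against SE the 16 calls became 0 on the panel median scale, 3 with TMM, 89 without rescaling, 79 with all 12 tumors in 1 fit, 72 with DESeq2's own size factors (48 higher, 24 lower), 108 with DESeq2 on the reference gene scale, and 0 without the tumors highest in Glycam1. Leaving out 1 tumor gave 4 to 105 calls and 0 to 2 of the 6 genes, with 105 and 2 without SE 4, 4 each without GLA-SE 2, GLA-SE 4 or SE 3, 9 without SE 1 and 7 without SE 2.

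Signs turned as follows, as log2 fold changes. For GLA-SE over PBS, Ccl19 was -1.16, Cxcl13 -0.77, Cxcr4 -0.73 and Cxcr5 -0.49 on the panel median scale, -0.80, -0.38, -0.36 and -0.10 with TMM, and -0.73, -0.32, -0.29 and -0.0384 with DESeq2's own size factors. Ccl19 was -0.20 without rescaling, and without the tumors highest in Glycam1 Ccl19 was -0.0632 and Ccl21a -0.50. For SE over PBS, Cxcr5 was -0.14 on the panel median scale, -0.21 with TMM, -0.20 without rescaling and -0.15 with DESeq2's own size factors, and -0.00934 to 0.18 leaving out 1 tumor. For GLA-SE over SE, the panel median scale gave -0.16 for Cxcl12, -0.87 for Cxcr4 and -0.35 for Cxcr5, TMM gave -0.40 for Cxcr4, and DESeq2's own size factors gave -0.00469 for Cxcl12 and -0.49 for Cxcr4. There, Cxcr4 was -0.19 without the tumors highest in Glycam1, and leaving out 1 tumor gave -0.33 to 0.88 for Cxcl12 and -3.65 to 1.43 for Ccl21a. The causes were not tested.

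The replicate numbers were not shown to pair the tumors (1 of 4 same-number pairs correlated above 0.1 in each comparison, and 2, 1 and 1 of 4 tumors correlated best with their own number). With the replicate number as a block the calls were 439, 0 and 0 for GLA-SE against PBS, SE against PBS and GLA-SE against SE, with 2, 0 and 0 of the 6 genes (Ccl21a at 2.41 and Cxcr4 at 0.54 lost their calls in the first).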

Other observations

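The skin-associated chemokines Ccl27a, made by keratinocytes, and Cxcl14, made by epithelium, had high normalized counts in SE 3 and SE 4. Ccl27a had normalized counts of 20.6, 44.0, 526 and 202 in SE tumors 1 to 4, 11.1 to 83.3 in PBS tumors and 19.4 to 37.5 in GLA-SE tumors. The place of SE 4 for Ccl27a rests on its scaling, since its deposited count (100) was below that of PBS 3 (114). Cxcl14 was 190, 153, 1308 and 1638 in SE tumors 1 to 4, 50.4 to 304 in PBS tumors and 194 to 660 in GLA-SE tumors. Epcam, an epithelial adhesion molecule, was 201, 173, 1134 and 4339 in SE tumors 1 to 4 and 113 to 325 in the other 8 tumors. The log2 fold changes of SE over PBS were 2.44 for Ccl27a, 2.31 for Cxcl14 and 2.91 for Epcam, none of which passed (edgeR adjusted p = 0.256 for each, SE 3 and SE 4 included). On normalized counts SE 3 was thus high for Ccl21a, Cxcl12, Ccl27a and Cxcl14 with Glycam1 at 9.96, and SE 4 was high for all 5.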
